A study of Mus musculus with 8 samples.

Results

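Aminoacyl-tRNA synthetases are the enzymes that join each amino acid to its tRNA. Their genes were taken from 1 table of 37620 Ensembl genes as every symbol made of a one-letter amino acid code followed by ars or ars2, together with Farsa, Farsb, Fars2 and Eprs. This gave 37 genes, 20 for enzymes of the cytosol and 17 for enzymes of mitochondria. The table holds RNA-seq of 8 single mouse oocytes in second meiotic metaphase (MII), the stage at which an ovulated egg waits for fertilisation. The 4 WT oocytes have the genotype Hira f/f, with both Hira alleles floxed and no Cre given in the genotype label. The 4 KO oocytes have the genotype Hira f/f, Gdf9-Cre+, in which Cre under the Gdf9 promoter acts in growing oocytes. Hira encodes a chaperone that places histone H3.3 into chromatin outside replication. All oocytes are labelled strain C57BL/6, while the sources used here give neither the age of the females nor which female gave which oocyte. A Gdf9-Cre+ tag stands in every title, also in those of the WT oocytes, and genotype was taken from the other labels. WT oocytes are numbered 1, 2, 4 and 5 and KO oocytes 1, 3, 5 and 6, and values are given in that order.

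In the cytosol 1 enzyme usually serves each amino acid. Glutamate and proline share the fused enzyme Eprs, and phenylalanine needs the alpha subunit Farsa joined to the beta subunit Farsb. Most mitochondrial enzymes are separate nuclear genes, named with a final 2, that charge the tRNAs encoded in mitochondrial DNA. Gars and Kars make both the cytosolic and the mitochondrial enzyme for glycine and lysine, and are counted here with the cytosolic enzymes. No mitochondrial glutamine enzyme exists in mammals. There glutamate is first put on the glutamine tRNA and then amidated by the products of Gatb, Gatc and Qrsl1. A fully grown oocyte does not transcribe, so its RNA is a maternal store, part of which is cleared or loses its poly(A) tail as the oocyte matures. Levels below are FPKM, the fragments of a gene relative to its length and to the size of the library, and the cDNA kit used primes from poly(A) tails, whose length was not measured.

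The libraries held 38032455 to 50208686 reads. Reads in listed genes made up 84.4 to 86.2% of a WT library and 75.1 to 80.4% of a KO library. Genes at FPKM 1 or more numbered 7121 to 7467 in WT and 7827 to 8512 in KO oocytes, and the part of this shift in the results below was not tested. Hira had 42, 0, 96 and 1 reads in the WT and 0, 2, 0 and 2 reads in the KO oocytes. WT oocytes 2 and 5 thus had no more Hira reads than the KO oocytes, and values without them are given beside the results they move most. All 10 oocyte markers, among them Zp3 and Gdf9, were at FPKM 1 or more in all 8 oocytes. Their sum was 12064 to 17627 FPKM in WT and 7907 to 10278 FPKM in KO oocytes, with no overlap. Most of this sum was Dppa3, at means of 11910 FPKM in WT and 7077 FPKM in KO oocytes. Of the 10 markers 7 had the lower mean of log2(FPKM + 1) in KO, 3 of them with every KO oocyte below every WT oocyte. Among the 7833 genes compared below, 3378 had the lower mean in KO and 7.37% had every KO oocyte below every WT oocyte. The part of the lower marker levels in the results below was not tested. Of 14 cumulus and granulosa cell markers, 2 reached FPKM 1 in any oocyte, Cyp19a1 and Nr5a2, while Amh, Amhr2, Cyp11a1, Foxl2 and Inha were listed at 0. The granulosa markers summed to 17.8 to 28.0 FPKM in WT and 14.5 to 34.1 FPKM in KO oocytes, most of it from Cyp19a1, at 7.70 to 29.9 FPKM. Of 11 blood markers 9 had an entry, 6 of these were listed at 0, the globins among them, and their sum was at most 3.53 FPKM. Cd68 and Ptprc reached FPKM 1. Cd68 had 1.70, 0, 2.17 and 0 FPKM in WT and 0, 1.41, 1.62 and 2.37 FPKM in KO oocytes. Ptprc had 1.81 and 1.16 FPKM in KO oocytes 1 and 6 and was listed at 0 in the others. Because no female is named, each genotype counts as 1 sample, no test between genotypes is given, and each SD is the spread between 4 oocytes.

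Cytosolic enzymes were detected far more widely than mitochondrial ones. A gene was compared between genotypes where 4 or more of the 8 oocytes had FPKM 1 or more, as did 34.9% of 20195 protein-coding genes. It held for 18 of the 37 synthetases, 16 of 20 cytosolic and 2 of 17 mitochondrial. The mitochondrial pair was Fars2, for phenylalanine, and Lars2, for leucine. The 4 cytosolic enzymes left out were Aars, Mars, Vars and Yars, which charge alanine, methionine, valine and tyrosine. Yars, Ears2, Hars2 and Mars2 were listed at 0 in every oocyte. For Yars a count of 0 allows up to 3 reads, which is 0.0133 FPKM in the shallowest library, and this limit covers counting error only.

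**Figure D1:**
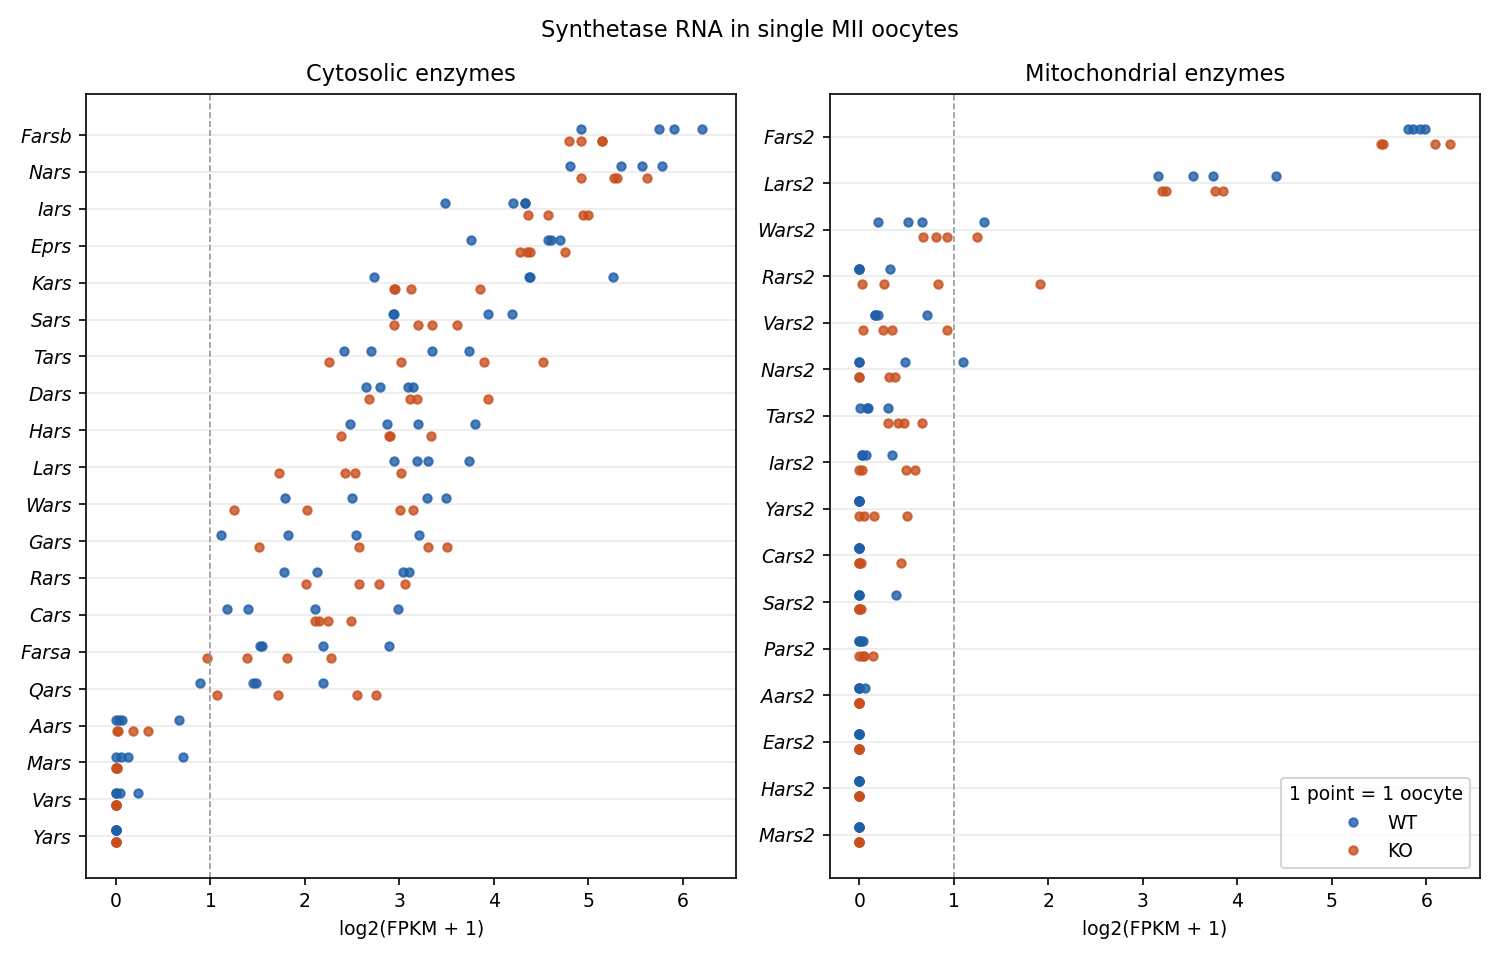
Level of 36 synthetases in each oocyte, as log2(FPKM + 1) on the horizontal axis, with cytosolic enzymes on the left and mitochondrial enzymes on the right. A point is 1 oocyte, blue for WT and orange for KO, and the dashed line marks FPKM 1. Of the mitochondrial enzymes, Fars2 and Lars2 lie right of the line in all 8 oocytes.

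The highest synthetase RNA in the oocyte was that of mitochondrial Fars2. Fars2 (ENSMUSG00000021420, chr13:36117412-36726280, plus strand, GRCm38) had 62.3, 54.9, 56.9 and 60.1 FPKM in WT and 45.7, 75.3, 45.0 and 67.3 FPKM in KO oocytes. The mean was 58.6 ± 3.31 FPKM (SD, n = 4) in WT and 58.3 ± 15.3 FPKM (SD, n = 4) in KO oocytes, so the means were close and the WT values lay within the KO range. Its mean over all 8 oocytes stood above 89.9% of all compared genes. Of its exonic bases in GENCODE M21, 10.7% are shared with Nrn1 and Lyrm4 on the opposite strand. Nrn1 was listed at 0, but Lyrm4 stood at 190.6 to 523.7 FPKM, above Fars2 in all 8 oocytes, and its part in the reads of Fars2 was not tested. The sources used here do not say whether counting used strand.

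Farsb, the beta subunit of the cytosolic phenylalanine enzyme, came next in mean level. Farsb (ENSMUSG00000026245, chr1:78417975-78488897, minus strand) had 72.8, 58.7, 29.2 and 52.6 FPKM in WT and 34.3, 26.7, 29.4 and 34.3 FPKM in KO oocytes. WT oocyte 4 lay among the KO values and the other WT oocytes above them. The mean was 53.3 ± 18.2 FPKM in WT and 31.2 ± 3.79 FPKM in KO oocytes (SD, n = 4 each), 1.71-fold lower in KO and 1.64-fold lower without WT oocytes 2 and 5. Of the exonic bases of Farsb, 9.47% are shared with Sgpp2 on the opposite strand.

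Farsa, the alpha subunit that pairs with Farsb, was far lower. Farsa (ENSMUSG00000003808, chr8:84856989-84869257, plus strand) had 6.41, 3.57, 1.88 and 1.93 FPKM in WT and 3.83, 2.51, 0.944 and 1.61 FPKM in KO oocytes. The groups overlapped, and Farsa was 1.55-fold lower in mean in KO. The level of Farsb was 8.94 to 31.1 times that of Farsa within an oocyte, and Fars2 stood at 9.72 to 47.7 times Farsa. The FPKM of Farsa divides by a gene model of 4538 bases, beside a coding transcript of 1826 bases. For Farsb these lengths are 2444 and 2036 bases, and for Fars2 both are 2125. How far the longer model lowers the level of Farsa, and so raises these ratios, was not tested. Fars2 exceeded Farsb in 6 of 8 oocytes, the exceptions being WT oocytes 1 and 2. RNA levels of the subunits were thus unequal in all 8 oocytes, and protein was not measured.

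Leucine was the other amino acid with a well-detected mitochondrial enzyme. Lars2 (ENSMUSG00000035202, chr9:123366927-123462666, plus strand) had 20.3, 12.4, 10.6 and 7.91 FPKM in WT and 12.6, 13.4, 8.46 and 8.22 FPKM in KO oocytes. Cytosolic Lars (ENSMUSG00000024493, chr18:42202298-42262194, minus strand) had 8.13, 12.3, 8.86 and 6.70 FPKM in WT and 4.79, 7.09, 2.31 and 4.37 FPKM in KO oocytes. Lars2 was the higher of the pair in all 8 oocytes, by a ratio of 1.01 in WT oocyte 2 up to 3.67 in KO oocyte 5. The mean of Lars2 was 12.8 ± 5.34 FPKM in WT and 10.7 ± 2.70 FPKM in KO (SD, n = 4 each). Lars averaged 9.001 ± 2.38 FPKM in WT and 4.64 ± 1.96 FPKM in KO (SD, n = 4 each), 1.94-fold lower in KO and 1.83-fold without WT oocytes 2 and 5, with KO oocyte 3 inside the WT range.

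**Figure D2:**
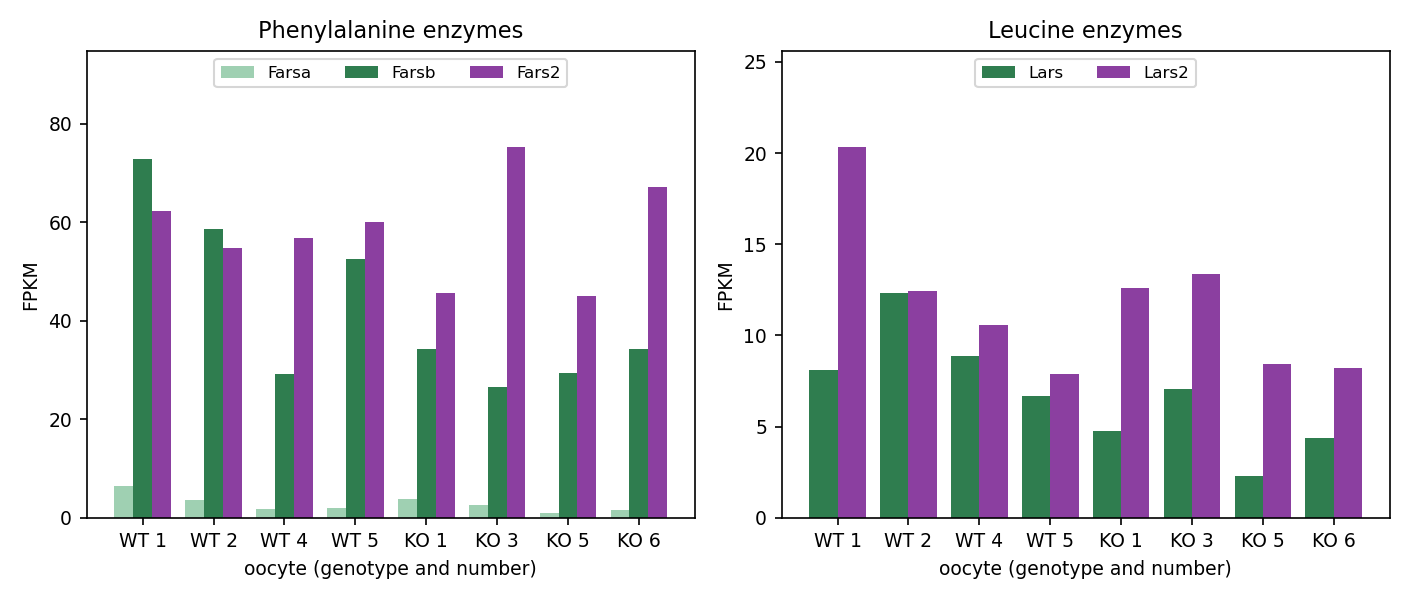
FPKM of the phenylalanine enzymes (left) and leucine enzymes (right) in each oocyte, with cytosolic genes in green and mitochondrial genes in purple. Fars2 stands far above Farsa in all 8 oocytes, and Lars2 above Lars in all 8, by a ratio of only 1.01 in WT oocyte 2.

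Most other amino acids with a compared enzyme showed the opposite order. Cars, Hars, Iars, Nars, Rars, Sars, Tars and Wars, for cysteine, histidine, isoleucine, asparagine, arginine, serine, threonine and tryptophan, were each above their mitochondrial counterpart in all 8 oocytes. So was Eprs against Ears2 for glutamate and against Pars2 for proline. The ratio of mean FPKM over the 8 oocytes was 155 for Nars over Nars2, 130 for Iars over Iars2, 10.4 for Rars over Rars2 and 7.23 for Wars over Wars2. For valine, too, the mitochondrial enzyme was the higher in all 8 oocytes, at means of 0.304 FPKM for Vars2 and 0.0258 FPKM for Vars. Of the exonic bases of Vars2, 8.52% are shared with the antisense gene Gm20483, which stood at 123.7 to 302.6 FPKM. Its part in the reads of Vars2, and so in the order of Vars2 and Vars, was not tested. Across the 18 cytosolic and mitochondrial gene pairs, the levels had a Pearson r of 0.19 and a Spearman rho of 0.07 on the log2(mean FPKM + 1) scale, a description in which Fars2 and Eprs each appear in more than 1 pair.

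**Figure D3:**
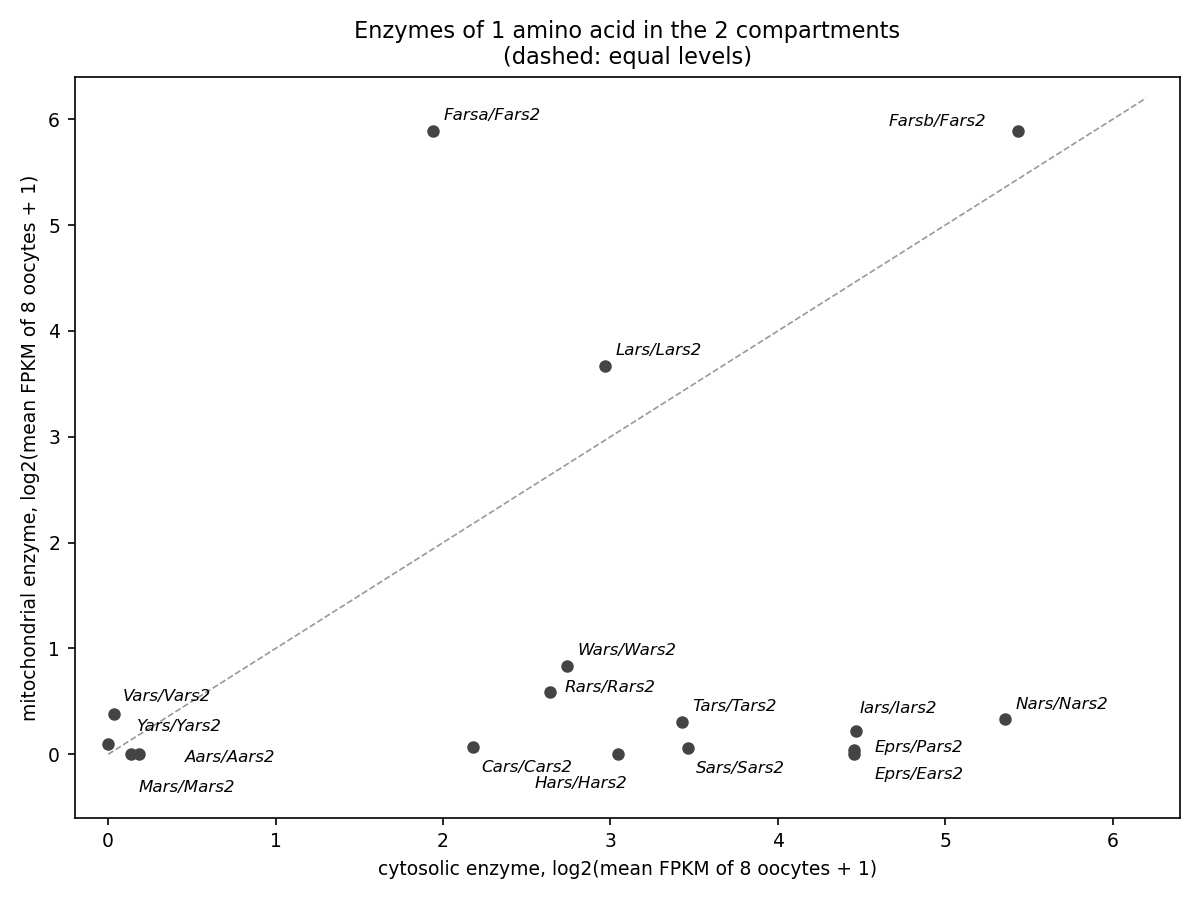
Mean level over 8 oocytes of the cytosolic enzyme (horizontal) and the mitochondrial enzyme (vertical) in 17 gene pairs, both as log2(mean FPKM + 1), with a dashed line of equal levels. The points of Fars2, Lars2, Vars2 and Yars2 lie above the line and most others along the bottom, with the mitochondrial enzyme near 0.

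Summed over its genes, the cytosolic set reached 263.6, 245.4, 210.8 and 162.7 FPKM in WT and 183.9, 232.3, 164.5 and 185.3 FPKM in KO oocytes. The mitochondrial set reached 84.7, 68.5, 69.2 and 69.8 FPKM in WT and 59.7, 90.2, 57.3 and 82.6 FPKM in KO oocytes. Both sums overlapped between genotypes. Per gene, the mean cytosolic level was 2.57 ± 0.439 times the mitochondrial one in WT and 2.29 ± 0.310 times in KO oocytes (SD, n = 4 each). Fars2 alone made up 73.6 to 86.1% of the mitochondrial sum, and Fars2 and Lars2 together 91.4 to 98.3%. Without these genes the mitochondrial sum was 1.999, 1.17, 1.73 and 1.75 FPKM in WT and 1.36, 1.61, 3.82 and 7.06 FPKM in KO oocytes, highest in KO oocytes 5 and 6. Farsb, Nars, Eprs and Iars made up 56.6 to 64.9% of the cytosolic sum.

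Nars, Iars and Eprs stood next among the cytosolic enzymes. Nars (ENSMUSG00000024587, chr18:64499647-64516652, minus strand), the asparagine enzyme, had 39.7, 53.7, 46.3 and 26.9 FPKM in WT and 37.6, 48.0, 29.4 and 38.3 FPKM in KO oocytes. The KO values lay inside the WT range, with means of 41.7 ± 11.4 and 38.3 ± 7.61 FPKM (SD, n = 4 each). Eprs (ENSMUSG00000026615, chr1:185363044-185428360, plus strand) had 22.8, 23.4, 24.9 and 12.5 FPKM in WT and 19.9, 25.9, 18.4 and 19.3 FPKM in KO oocytes. Its means were nearly equal, at 20.90 ± 5.64 FPKM in WT and 20.86 ± 3.41 FPKM in KO (SD, n = 4 each). Over the 8 oocytes the ranges of Fars2, Farsb and Nars overlapped one another, as did those of Iars and Eprs.

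Iars, the isoleucine enzyme, was the only compared synthetase with every KO oocyte above every WT oocyte. Iars (ENSMUSG00000037851, chr13:49682100-49734267, plus strand) had 19.1, 17.4, 19.1 and 10.2 FPKM in WT and 22.9, 30.9, 29.7 and 19.6 FPKM in KO oocytes. The means were 16.4 ± 4.23 and 25.7 ± 5.42 FPKM (SD, n = 4 each), a ratio of 1.57 that became 1.35 without WT oocytes 2 and 5. The lowest KO oocyte, 6, was only just above WT oocytes 1 and 4. The processed pseudogene Gm4849 matches Iars at 96.0% identity over 1656 bases, so reads could be shared between them. Among all compared genes 13.4% had every KO oocyte above every WT oocyte and 7.37% had every KO oocyte below, against 1 and 0 of the 18 synthetases.

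Kars, the lysine enzyme of both compartments, was the only compared synthetase past 2-fold. Kars (ENSMUSG00000031948, chr8:111993443-112011323, minus strand) had 37.4, 19.8, 19.7 and 5.62 FPKM in WT and 7.73, 13.5, 6.76 and 6.70 FPKM in KO oocytes. WT oocyte 5 was the lowest of all 8, so the groups overlapped. The mean was 20.6 ± 13.0 FPKM in WT and 8.67 ± 3.25 FPKM in KO (SD, n = 4 each), 2.38-fold lower in KO. Without WT oocyte 1 it was 1.73-fold lower, and without WT oocytes 2 and 5 it was 3.29-fold lower. Among all compared genes the KO mean was at least 2-fold above the WT mean in 18.3% and at least 2-fold below it in 6.84%, against 0 and 1 of the 18 synthetases. Lars, at 1.94-fold lower, lay just outside 2-fold.

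The compared synthetases went both ways, 8 with the higher mean of log2(FPKM + 1) in KO and 10 in WT. Of all 7833 compared genes, 4455 had the higher mean in KO and 3378 in WT. Eprs is among the 8 synthetases higher in KO, although its mean FPKM was slightly lower in KO. The difference of a gene is the KO minus WT mean of log2(FPKM + 1), on which the change of low genes is understated. Its median was -0.07 over the 18 compared synthetases, -0.03 over the 16 cytosolic ones and -0.12 over Fars2 and Lars2, beside 0.10 over all 7833 compared genes. Without WT oocytes 2 and 5 the cytosolic median was -0.19, that of Fars2 and Lars2 -0.26 and that of all compared genes 0.06. The differences ran from -0.96 for Kars to 0.63 for Iars. The signs of the cytosolic and of the mitochondrial median changed with which oocytes were kept.

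**Figure D4:**
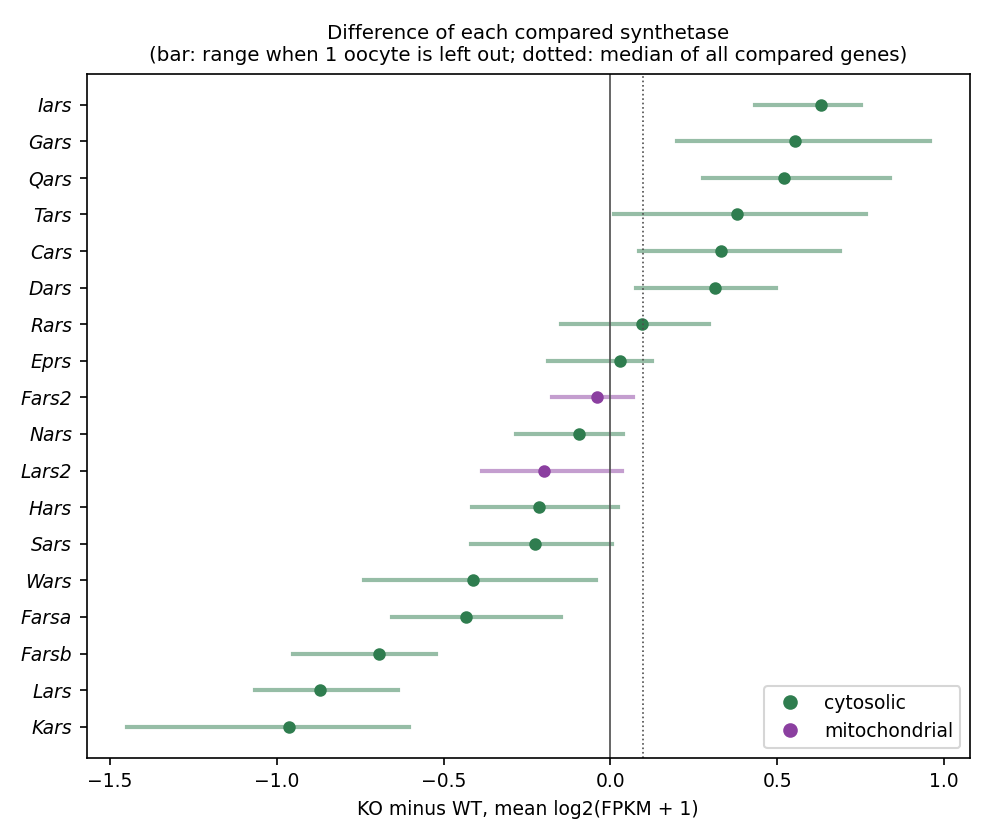
KO minus WT difference in mean log2(FPKM + 1) of the 18 compared synthetases, cytosolic in green and mitochondrial in purple, with a bar for the range when 1 oocyte is left out. Differences run from -0.96 for Kars to 0.63 for Iars around the dotted median of all compared genes, 0.10.

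Glycine and glutamine enzymes varied widely between oocytes. Gars, which serves both compartments, had 1.15, 2.53, 4.80 and 8.24 FPKM in WT and 4.94, 10.3, 1.85 and 8.84 FPKM in KO oocytes, a ratio of means of 1.55. The groups overlapped, and the ratio was 2.18 without WT oocytes 2 and 5 and 2.29 without WT oocyte 5 alone. Qars, the cytosolic glutamine enzyme, had 1.74, 1.78, 3.55 and 0.857 FPKM in WT and 5.74, 2.28, 1.10 and 4.87 FPKM in KO oocytes. KO oocytes 1 and 6 were above all WT oocytes and KO oocyte 5 was below 3 of them. The ratio of means was 1.76, and 1.32 without WT oocytes 2 and 5.

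Threonine, aspartate and arginine enzymes also overlapped between genotypes. Tars had 9.13, 5.48, 4.31 and 12.3 FPKM in WT and 13.9, 21.9, 7.10 and 3.78 FPKM in KO oocytes, so KO held both its highest and its lowest value. Dars had 5.25, 7.53, 7.83 and 5.93 FPKM in WT and 5.41, 7.67, 14.3 and 8.12 FPKM in KO oocytes, where KO oocytes 5 and 6 were above all WT oocytes. Rars had 2.43, 7.23, 7.57 and 3.36 FPKM in WT and 3.02, 7.33, 4.94 and 5.90 FPKM in KO oocytes, inside the WT range. The ratios of means were 1.50 for Tars, 1.34 for Dars and 1.03 for Rars.

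Among the enzymes of serine, histidine, tryptophan and cysteine, the KO values lay mostly inside the WT range. Sars had 6.62, 17.3, 14.3 and 6.71 FPKM in WT and 6.69, 11.2, 8.20 and 9.14 FPKM in KO oocytes. Hars had 12.9, 8.20, 6.28 and 4.58 FPKM in WT and 6.39, 6.44, 4.21 and 9.06 FPKM in KO oocytes. Only KO oocyte 5, at 4.21 FPKM of Hars, lay outside the WT range of this pair of genes. Wars had 10.3, 4.65, 8.79 and 2.45 FPKM in WT and 3.07, 7.05, 1.38 and 7.82 FPKM in KO oocytes, spread over a like range in both genotypes with KO oocyte 5 lowest. The KO to WT ratio of Wars was 0.739, and 0.507 without WT oocytes 2 and 5. Cars had 6.94, 1.26, 3.30 and 1.63 FPKM in WT and 3.73, 3.44, 4.61 and 3.32 FPKM in KO oocytes. The KO values of Cars lay close together inside a wide WT range, and its difference changed sign, from 0.33 to -0.30, without WT oocytes 2 and 5.

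Hars and Hars2 lie head to head on chromosome 18, at 36766528 to 36783205 on the minus strand and 36783008 to 36792562 on the plus strand. Of the exonic bases of Hars, 7.97% are shared with Hars2. Hars had a mean of 7.26 FPKM over the 8 oocytes, while Hars2 was listed at 0 in all of them.

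Of the weakly detected cytosolic enzymes, Aars and Mars had most of their reads in single WT oocytes. Aars had 236, 10, 0 and 15 reads in WT and 5, 47, 3 and 118 reads in KO oocytes, and 15.1% of its exonic bases are shared with Exosc6 and a miRNA gene. Mars had 6, 98, 16 and 0 reads in WT and 0, 1, 1 and 0 reads in KO oocytes. WT oocyte 2 thus held most reads of Mars and WT oocyte 1 most WT reads of Aars. Vars was listed at 0.178 FPKM in WT oocyte 1, 0.0284 FPKM in WT oocyte 4 and 0 in the others.

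Several weakly detected mitochondrial enzymes had more reads in KO oocytes. Mitochondrial enzymes above 0 numbered 8, 9, 7 and 8 in WT and 10, 10, 11 and 11 in KO oocytes. Over the whole table the genes above 0 also numbered more in KO, at 13255 to 14599, than in WT, at 12167 to 12793. Rars2, for arginine, had 0, 32, 0 and 0 reads in WT and 24, 2, 95 and 363 reads in KO oocytes, where KO oocyte 6 held most. Tars2, for threonine, had 45, 12, 15 and 1 reads in WT and 45, 67, 64 and 123 reads in KO oocytes, with WT oocyte 1 equal to the lowest KO oocyte. Yars2, for tyrosine, had no read in WT and 0, 4, 16 and 63 reads in KO oocytes. These 3 enzymes stayed below FPKM 1 in every oocyte but for Rars2 in KO oocyte 6.

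Reads of Wars2, Iars2, Vars2 and Pars2 also summed to more in KO, and those of Nars2 to fewer, with overlap between genotypes in each. The sums in WT and KO were 738 and 945 for Wars2, 140 and 383 for Iars2 and 246 and 351 for Vars2. They were 6 and 22 for Pars2 and 254 and 103 for Nars2. Wars2, for tryptophan, had 37, 157, 447 and 97 reads in WT and 154, 176, 362 and 253 reads in KO oocytes, a wide spread in WT that enclosed all KO oocytes. Iars2, for isoleucine, had 104, 21, 9 and 6 reads in WT and 8, 0, 162 and 213 reads in KO oocytes, and shares 24.2% of its exonic bases with genes on the opposite strand, Rab3gap2 among them. Nars2, for asparagine, had 72, 0, 0 and 182 reads in WT and 0, 0, 55 and 48 reads in KO oocytes, so both genotypes held oocytes with none. Vars2 had 151, 36, 33 and 26 reads in WT and 45, 6, 65 and 235 reads in KO oocytes. Pars2, for proline, had 0, 2, 4 and 0 reads in WT and 5, 13, 4 and 0 reads in KO oocytes. Cars2 was listed above 0 in KO oocytes 3 and 6, Sars2 in WT oocyte 1 and KO oocyte 1, and Aars2 in WT oocyte 5, all below FPKM 1.

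Vertebrate cytosol holds a multi-synthetase complex in which Dars, Eprs, Iars, Kars, Lars, Mars, Qars and Rars are bound to the scaffold proteins Aimp1, Aimp2 and Eef1e1. Of the 8 enzymes 7 were compared, all but Mars, and their RNA was far from equal. The highest was 4.48 to 26.9 times the lowest within an oocyte, Mars left out. The FPKM of Qars, one of the low ones, divides by a gene model of 6200 bases, beside a coding transcript of 2800. The effect of this on the ratio was not tested. The median difference of the 7 was 0.10, and that of all compared genes was 0.10 too. The scaffold Eef1e1 had 28.9, 51.1, 119.8 and 110.2 FPKM in WT and 58.4, 51.1, 86.1 and 76.3 FPKM in KO oocytes, with WT oocytes 1 and 4 lying at the ends of the whole range. Aimp1 had 19.1, 33.1, 28.0 and 17.7 FPKM in WT and 11.1, 18.5, 20.9 and 16.6 FPKM in KO oocytes, an overlap with a difference of -0.51. Aimp2 was low, with means of 2.05 ± 1.25 and 1.58 ± 0.573 FPKM (SD, n = 4 each). None of the 3 scaffolds passed 2-fold, beside 18.3% upward and 6.84% downward over all compared genes.

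Synthetases fall into a pair of unrelated structural classes, class I and class II. Of 19 class I genes 8 were compared and of 19 class II genes 11, with Eprs counted in both. None of the class I enzymes passed 2-fold, and Kars was the only class II enzyme to do so. Over all compared genes 18.3% passed it upward and 6.84% downward. The median differences were 0.06 for class I and -0.10 for class II, and -0.25 and -0.18 without WT oocytes 2 and 5.

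Genes that edit, modify or replace aminoacyl-tRNAs went both ways. Of 13 in the list 7 were compared, 2 were past 2-fold upward in KO and 1 downward, beside 18.3% upward and 6.84% downward over all compared genes, and the median difference was 0.23. Without WT oocytes 2 and 5 the list had 1 upward, Dtd1, and 2 downward, Gatb and Secisbp2. Dtd1, which removes D-amino acids from tRNA, had 0.493, 3.26, 1.16 and 1.13 FPKM in WT and 8.48, 2.34, 5.11 and 8.03 FPKM in KO oocytes. It was 3.97-fold higher in mean in KO, with WT oocyte 2 above KO oocyte 3. Prorsd1, named for its likeness to a prolyl-tRNA editing domain, had 5.99, 2.42, 2.36 and 1.77 FPKM in WT and 6.25, 5.80, 9.46 and 7.07 FPKM in KO oocytes, 2.28-fold higher in mean, with WT oocyte 1 above KO oocyte 3. Secisbp2, which binds the RNA element that directs selenocysteine insertion, had 12.5, 7.52, 8.03 and 4.56 FPKM in WT and 3.44, 3.77, 3.69 and 2.74 FPKM in KO oocytes, 2.39-fold lower with no overlap. Sepsecs, which makes selenocysteine on its tRNA, had means of 13.9 ± 1.90 and 26.3 ± 14.3 FPKM (SD, n = 4 each), with KO oocyte 3 at 47.3 FPKM.

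For the mitochondrial glutamine route, Gatb had 2.39, 0.852, 1.16 and 2.51 FPKM in WT and 0.0430, 0.895, 1.61 and 0.967 FPKM in KO oocytes. Its mean was 1.97-fold lower in KO, and KO oocyte 1 alone lay below all WT oocytes. Gatc and Qrsl1 were not compared. They reached 5.10 FPKM at most, for Gatc in KO oocyte 3, and Qrsl1 was listed at 0 in 4 oocytes.

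Translation factors of mitochondria were detected more often than mitochondrial synthetases. Of 11 such factors 6 were compared, beside 2 of 17 synthetases. None passed 2-fold, beside 18.3% upward and 6.84% downward over all compared genes. Without WT oocytes 2 and 5, Tsfm passed it downward. The median difference of the 6 was 0.20, beside 0.10 over all compared genes. Gfm1, an elongation factor, had means of 20.3 ± 6.50 and 25.3 ± 5.14 FPKM, and the initiation factor Mtif3 10.1 ± 4.28 and 11.5 ± 2.995 FPKM (SD, n = 4 each). Mtif2, which brings the initiator tRNA to the ribosome, had a mean 1.93-fold higher in KO and overlapped between genotypes. Tsfm, the exchange factor of the elongation factor Tufm, had 21.6, 7.17, 5.68 and 4.49 FPKM in WT and 4.72, 5.97, 5.80 and 4.27 FPKM in KO oocytes, with WT oocyte 1 apart from the rest. Tufm itself was at most 0.235 FPKM.

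Cytosolic elongation factors showed a like mixture of levels. Of 6 in the list 4 were compared and none passed 2-fold, beside 18.3% upward and 6.84% downward over all compared genes. The median difference was -0.22, beside 0.10 over all compared genes. Without WT oocytes 2 and 5, Eif5a was past 2-fold downward. Eef1a1, which delivers charged tRNAs to the ribosome, had 13.9, 8.21, 5.76 and 9.59 FPKM in WT and 16.1, 19.4, 17.4 and 16.7 FPKM in KO oocytes, with no overlap and a ratio of means of 1.85. Eef1a1 has many processed pseudogenes, so its reads are uncertain. Eef1b2, a subunit of its exchange factor, had means of 22.1 ± 3.52 and 14.9 ± 4.03 FPKM (SD, n = 4 each), 1.49-fold lower in KO. Eif5a, which helps the ribosome through difficult peptide bonds, stood at 172.7 FPKM in WT oocyte 1 and 29.0 to 74.7 FPKM in the other 7. Eef2 and Eef1g, not compared, had means below 1 FPKM in both genotypes.

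Many cytosolic synthetase genes are known targets of the transcription factor ATF4, which is made when amino acids run short or eIF2 is phosphorylated. ATF4 acts at an amino acid response element with the core TGATGNAA. RefSeq promoters on GRCm38.p6, each of 300 bases around the start, were at hand for 27 of the 37 synthetases, and this motif was chosen after the levels had been seen. On either strand it was present in a promoter of 5 of 13 cytosolic genes, 38.5%, and of 0 of 14 mitochondrial genes. It was present in a promoter of 36.4% of 22 other genes listed as ATF4 targets, and in 3.97% of 32851 single promoters in all. For synthetases and ATF4 targets a gene counts once if any of its promoters has the motif, so these shares differ in unit from the last. No other motif was searched. The promoters of Iars, Tars, Aars and Yars follow 5′ to 3′ on the gene's strand with the motif in capitals, because they carry the same element, while the first pair was compared and the second was at or near 0.
Iars, chr13:49681880-49682179, plus strand: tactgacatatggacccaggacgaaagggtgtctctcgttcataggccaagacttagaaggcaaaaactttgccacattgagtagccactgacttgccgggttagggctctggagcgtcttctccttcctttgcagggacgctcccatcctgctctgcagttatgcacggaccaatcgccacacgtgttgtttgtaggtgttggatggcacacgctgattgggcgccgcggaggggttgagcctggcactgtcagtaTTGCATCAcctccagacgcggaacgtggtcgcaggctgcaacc
Tars, chr15:11399609-11399908, minus strand: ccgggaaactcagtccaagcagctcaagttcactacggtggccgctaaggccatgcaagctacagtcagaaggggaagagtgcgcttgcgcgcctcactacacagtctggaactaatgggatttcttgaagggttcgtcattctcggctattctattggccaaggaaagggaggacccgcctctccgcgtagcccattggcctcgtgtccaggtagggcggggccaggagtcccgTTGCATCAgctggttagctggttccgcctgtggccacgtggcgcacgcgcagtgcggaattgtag
Aars, chr8:111033592-111033891, plus strand: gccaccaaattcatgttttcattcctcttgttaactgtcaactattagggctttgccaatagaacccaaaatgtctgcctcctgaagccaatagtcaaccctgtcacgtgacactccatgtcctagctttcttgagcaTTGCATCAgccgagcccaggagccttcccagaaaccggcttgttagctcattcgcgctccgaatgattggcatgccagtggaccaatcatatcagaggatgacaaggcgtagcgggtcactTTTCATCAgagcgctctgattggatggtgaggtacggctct
Yars, chr4:129189653-129189952, plus strand: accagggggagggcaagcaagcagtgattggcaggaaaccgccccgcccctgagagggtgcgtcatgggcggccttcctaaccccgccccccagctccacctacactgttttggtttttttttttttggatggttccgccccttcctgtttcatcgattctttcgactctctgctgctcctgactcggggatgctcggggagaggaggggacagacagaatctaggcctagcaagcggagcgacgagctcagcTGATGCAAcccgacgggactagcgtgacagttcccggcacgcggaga
Counted from the start, the motif begins at +8 in Iars, -15 in Tars, -112 and +10 in Aars and +4 in Yars. The fifth promoter with it was that of Gars, at -30. Over the 8 oocytes the mean levels of these genes ran from 0 for Yars and 0.134 FPKM for Aars to 5.34 for Gars, 9.75 for Tars and 21.1 for Iars. The motif was thus present in promoters of compared enzymes, of the weakly detected Aars and of Yars, which was listed at 0, and a match of letters is no sign of binding.

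The other ATF4 targets did not share one direction. Of the 23 genes 8 were compared, 2 past 2-fold upward in KO and 0 downward, beside 18.3% upward and 6.84% downward over all compared genes, and the median difference was 0.17. Without WT oocytes 2 and 5 the counts were again 2 and 0, and the median was -0.05. Ddit3, which encodes the stress factor CHOP, had 0.879, 5.73, 5.50 and 2.24 FPKM in WT and 23.8, 17.2, 24.9 and 17.2 FPKM in KO oocytes. Every KO oocyte was above every WT oocyte and the mean was 5.79-fold higher. Ddit3 lies beside Mars and shares 1.99% of the exonic bases of Mars, on the opposite strand. Ddit4, an inhibitor of mTORC1 signalling, had 1.02, 1.07, 1.21 and 0.889 FPKM in WT and 4.06, 1.96, 1.63 and 1.29 FPKM in KO oocytes, 2.14-fold higher in mean with no overlap. Atf4 itself had 3.59, 6.75, 5.15 and 5.61 FPKM in WT and 4.36, 6.11, 8.70 and 11.5 FPKM in KO oocytes, where KO oocytes 5 and 6 were above all WT oocytes. Mthfd2 and Shmt2, enzymes of mitochondrial folate metabolism, had KO to WT ratios of 0.905 and 1.38, and the amino acid transporter genes Slc3a2 and Slc7a11 0.868 and 0.783. Asns and Chac1, 2 other targets, were above 0 in WT oocyte 1 alone, and Psat1 was listed at 0.

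Of 9 genes that sense uncharged tRNA or act on eIF2, 7 were compared, 2 past 2-fold upward in KO and 1 downward, beside 18.3% upward and 6.84% downward over all compared genes, and the median difference was 0.41. Without WT oocytes 2 and 5 the counts were 2 and 0, and the median was -0.11. Gcn1l1, the activator of the kinase that binds uncharged tRNA, had 1.17, 0.872, 0.589 and 0.960 FPKM in WT and 2.28, 2.34, 4.00 and 4.21 FPKM in KO oocytes, 3.57-fold higher with no overlap. Impact, which competes for GCN1, had 2.90, 4.39, 2.58 and 0.636 FPKM in WT and 8.57, 6.27, 3.72 and 10.1 FPKM in KO oocytes, 2.72-fold higher, with WT oocyte 2 above KO oocyte 5. Eif2s1, the eIF2 subunit that is phosphorylated, had 8.76, 17.6, 16.4 and 15.0 FPKM in WT and 6.90, 6.69, 7.65 and 5.85 FPKM in KO oocytes, 2.14-fold lower with no overlap. The kinase Eif2ak4, which Gcn1l1 activates, had means of 6.77 ± 1.26 and 5.85 ± 1.85 FPKM, and Ppp1r15a, which directs a phosphatase to eIF2, 27.2 ± 19.1 and 25.0 ± 13.1 FPKM (SD, n = 4 each). Eif2ak1, another kinase of the list, had means of 18.9 ± 1.40 and 25.7 ± 3.89 FPKM (SD, n = 4 each). Its ratio of means was 1.36, with every KO oocyte above every WT oocyte.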

How the data were processed

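Each sample is 1 oocyte. Per the labels' protocols, SMARTer Ultra Low Input cDNA was made directly from each oocyte with ERCC spike-in RNA, and fragmented cDNA was sequenced on an Illumina HiSeq instrument. The authors deposited FPKM per gene. Tools named in the submitters' processing notes, without roles, are edgeR 3.1.10, HTSeq, TopHat, TopHat2 2.0.2, Bowtie2 and Bowtie 0.12.8, with build mm9. The sources used here give no annotation release, gene lengths or use of strand. ERCC values were not used here, so levels are relative within a library.

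Symbols matched 32897 of 37620 identifiers. GENCODE M21 (GRCm38) gave coordinates and exon overlaps, with no conversion between builds. Transcripts of other genes were searched with blastn 2.17.0+ at 95% identity or more over at least 500 bases. Reads were recovered from the steps of the deposited FPKM, and 99.99% of 105060 values above 0 came out whole within 0.0001 reads. Library totals rested on 4729 of 10915 usable genes, those whose exon length equals that in GENCODE. Reads are given only where the gene's length could be settled, which left out Aars2, Cars2, Sars2 and Vars. FPKM divides by the library total, so a library with fewer reads in listed genes has lower FPKM throughout.

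Each difference is the KO mean of log2(FPKM + 1) less the WT mean, and folds are ratios of mean FPKM with no pseudocount. Genes had to reach FPKM 1 in 4 of 8 oocytes, and 2-fold marks a change of note. No test was made, because no female is named and a genotype is then 1 sample. The members and lists were chosen with earlier results of these data known. Named in full are members past 2-fold, the 5 highest and those beside 2-fold, and of other lists up to 4 with the largest difference and up to 4 with the highest level. Gatb, Gatc, Qrsl1, Tufm, Eef2, Eef1g, Asns, Chac1 and Psat1 were named after their values were seen. Alternatives were other pseudocounts, filters and scalings, each oocyte left out, a replicate block and, added after seeing the data, WT oocytes 2 and 5 left out. Python 3.11.15, pandas 2.3.3 and numpy 2.4.6 were used. Of the 37 enzymes 1 is not reported here on its own, though counts and sums include it.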

Additional observations from a re-analysis of the deposited data

Results flagged for a closer look

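The values below each stood apart from the other 3 oocytes of their genotype, by a gap that made up most of the range. Every synthetase was scanned in both genotypes, so some such gaps would arise by chance. Where the other 3 oocytes were at 0, any value above 0 was flagged, however small. WT oocyte 1 stood apart most often. It was highest of the WT oocytes for Aars at 0.589 FPKM, Iars2 at 0.271 FPKM, Vars2 at 0.641 FPKM and Sars2 at 0.312 FPKM, where the other WT oocytes were listed at 0 for Sars2. It was also highest for the summed mitochondrial enzymes, at 84.7 FPKM, and for the ratio of Lars2 to Lars, at 2.50.

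WT oocyte 5 stood below the other WT oocytes for Eprs, at 12.5 FPKM, and for Iars, at 10.2 FPKM. It was the only WT oocyte above 0 for Aars2, at 0.0393 FPKM. WT oocyte 2 was the only WT oocyte above 0 for Rars2, at 0.255 FPKM. Among KO oocytes, Cars2 stood at 0.362 FPKM in oocyte 6 and Sars2 at 0.0124 FPKM in oocyte 1, the only KO oocyte above 0 for it.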

How the results depend on the processing

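The median difference was -0.03 for cytosolic enzymes, with a range of -0.24 to 0.18 over 16 alternatives, and -0.12 for mitochondrial ones, with a range of -0.35 to 0.10. Signs changed in 4 and 3 of these. No value moved beyond the spread between oocytes, but that spread, 0.33 and 0.28 (log2), is larger in size than either median. The cytosolic minus mitochondrial median was 0.09, -0.17 without a filter on low values, 0.33 with a replicate block over the shared numbers 1 and 5, and -0.05 to 0.20 with 1 oocyte left out. Enzymes at least 2-fold higher in KO numbered 0, but 7 without a filter, 1 (Qars) after rescaling to a fixed sum or with the block, 1 (Gars) without WT oocytes 2 and 5, and 0 to 1 with 1 oocyte left out (Qars without WT 4 or KO 5, Gars without WT 5). Enzymes at least 2-fold lower numbered 1, but 6 without a filter, 2 (Kars and Lars) with median-of-ratios scaling, 3 (Wars, Lars and Kars) with the block, and 1 to 2 with 1 oocyte left out. There Lars passed without WT 1, WT 5 or KO 3, Farsa without KO 1, and Kars did not pass without WT 1. The cytosolic to mitochondrial level ratio was 2.43 and 2.34 to 2.50 with 1 oocyte left out, but 0.434 where a mean of FPKM 5 was required, a filter that keeps 13 cytosolic enzymes and, of the mitochondrial ones, the high Fars2 and Lars2 alone. Rescaling raised the median of all compared genes by 0.22 and median-of-ratios scaling lowered it by 0.11 (log2). Relative to that median the cytosolic median was -0.13 as reported, -0.14 and -0.16, and the mitochondrial one -0.22, -0.23 and -0.24. Of 285 values for single enzymes 283 stayed within the spread. The exceptions were Fars2 with the block, at -0.43, and Cars without WT oocytes 2 and 5. The spread is the pooled SD of single oocytes. Leaving out 1 of the 4 oocytes of a genotype cannot move a single enzyme that far, so those values could not fall outside it. The deviations of same-numbered oocytes correlated at 0.03 and 0.07, and oocytes of unlike number were not set beside them. These values cannot tell whether a shared number marks a shared female or day. The cause of these shifts was not tested beyond the filters' own selection. Below FPKM 1 values rest on few reads.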

Other observations

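Genes that trim, mend and end-process tRNA were measured beside the synthetases. Of 22 in the list 12 were compared, 1 past 2-fold upward in KO and 2 downward, beside 18.3% upward and 6.84% downward over all compared genes, and the median difference was -0.22. Without WT oocytes 2 and 5 the counts were 1 and 3, and the median was -0.09. The lower ones were Rpp21 and Rtcb. Rpp21, a protein of ribonuclease P, which cuts the 5′ leader from tRNA, had 8.18, 7.54, 10.6 and 12.5 FPKM in WT and 2.13, 0.800, 2.62 and 1.20 FPKM in KO oocytes. It was 5.75-fold lower in mean in KO with no overlap. Rtcb, the ligase that joins the pieces of spliced tRNA, had means of 1.53 ± 1.04 and 0.490 ± 0.596 FPKM (SD, n = 4 each), 3.13-fold lower, with overlap. Other proteins of ribonuclease P did not follow Rpp21 alike. Pop7 was 1.87-fold lower with no overlap, Pop4 2.55-fold higher with overlap, and Rpp38 stood at 29.9 ± 3.88 FPKM in WT and 38.7 ± 7.09 FPKM in KO (SD, n = 4 each). Among the members not compared, 3 named after their values were seen had higher means in KO. Hsd17b10, a subunit of mitochondrial ribonuclease P, stood at 0.0852 ± 0.0986 FPKM in WT and 2.78 ± 1.67 FPKM in KO (SD, n = 4 each), with no overlap. The tRNA splicing genes Tsen15 and Tsen34 had KO means of 1.10 and 1.53 FPKM and WT means of 0.00299 and 0.0561 FPKM, with overlap for Tsen34. Trnt1, which adds the CCA end that synthetases charge, had 30.3, 34.8, 41.5 and 34.9 FPKM in WT and 62.6, 29.6, 36.5 and 24.1 FPKM in KO oocytes, with the KO values on both sides of the WT ones.

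The level of a cytosolic enzyme was set beside how often its amino acid is coded by the oocyte's RNA, taken from the coding sequences of the measured genes weighted by FPKM. Leucine made up 9.78% of coded residues, serine 8.28%, asparagine 3.98% and tryptophan 1.14%. Lars, for the most frequent residue, had a mean of 6.82 FPKM over the 8 oocytes, and Nars 40.00 FPKM. Over the 20 amino acids Pearson's r was 0.17 and Spearman's rho 0.26, with the lower subunit taken for phenylalanine and Eprs counted for both of its amino acids, in the same 8 libraries. Over the 37 genes the level had an r of -0.25 and a rho of -0.30 with transcript GC content, beside -0.17 and -0.13 over 20129 protein-coding genes. The median GC content was 50.3% in the compared synthetases and 53.7% in the others. Over protein-coding genes it was 48.0% in those compared and 50.9% in those not compared.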
